A study of Mus musculus with 3 samples.

Results

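Gene expression in mouse JB6 P+ cells given the phorbol ester TPA was compared with that in untreated control cells, gene by gene, from 1 RNA sequencing library on each side. The members of the comparison are all genes with at least 1 CPM in either library, where CPM scales reads to the depth of each library: 12831 of the 24421 genes in the count table, of which 11702 reached that level in both libraries, 858 in the TPA library alone and 271 in the control library alone. JB6 P+ is a promotion-sensitive line of mouse epidermal origin, labelled as skin epithelial cells. The treated cells received TPA at 10 ng/mL in medium with 1% FBS, renewed on alternate days over 5 days. Another library came from cells that received the same TPA dose together with 50 nM CDDO, a synthetic triterpenoid, and its values are given only for reference; its column in the count table names CDDO without TPA and was matched to the one sample whose labels name CDDO. No source used here gives the medium, vehicle or time in culture of the control, so that TPA, serum and time in culture cannot be told apart as the source of a difference. Each group was 1 culture sample with no replicate; every interval covers counting error only, and no difference has been set against the spread between cultures. Where 3 values are listed for a gene, they are for control, TPA and CDDO+TPA in that order.

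TPA is a stable mimic of diacylglycerol, the lipid second messenger made when receptors activate phospholipase C. It binds the C1 domains of protein kinase C and of several other proteins, drives the Ras, RAF and ERK kinase cascade and activates AP-1, a dimer of FOS and JUN family proteins that binds the TPA response element in promoters. On skin it causes inflammation, release of growth factors and epidermal thickening, and repeated doses promote tumours from cells that already carry a mutation. Sustained exposure is also known to deplete the kinase C isoforms that respond to it, and JB6 P+ cells given TPA for days acquire the ability to grow without anchorage.

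Libraries held 7813035 to 8190078 reads assigned to genes, and 15133 genes had a read in the control library against 15956 in the TPA library. A gene is called higher or lower below when its log2 fold change, computed with a prior count of 2, reached 1 in either direction and a 95% counting interval around the fold left out 1. By this size rule 1250 genes were higher in the TPA library, 9.74% of the genes tested, and 771 were lower, 6.01%. Most of the higher genes were near silent: of the 9821 genes with a mean of at least 10 CPM over both libraries, 384 were higher (3.91%) and 467 lower (4.76%), while below that mean 866 were higher and 304 lower. Which direction was the more frequent among the 9821 depended on the scaling, with 438 higher and 401 lower when libraries were scaled by their total counts and 443 and 395 with upper-quartile factors. The median log2 fold change was -0.00 over all genes tested and -0.04 over those with a mean of at least 10 CPM, whose quartiles were -0.35 and 0.25. These percentages and medians are the background for the counts of each gene group. A gene tested only because it reached 1 CPM in 1 of the libraries had to be higher there, so counts over all tested genes of a group carry less than those at a mean of at least 10 CPM. In a bulk library, fewer cells of a type and less RNA per cell cannot be told apart.

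**Figure D1:**
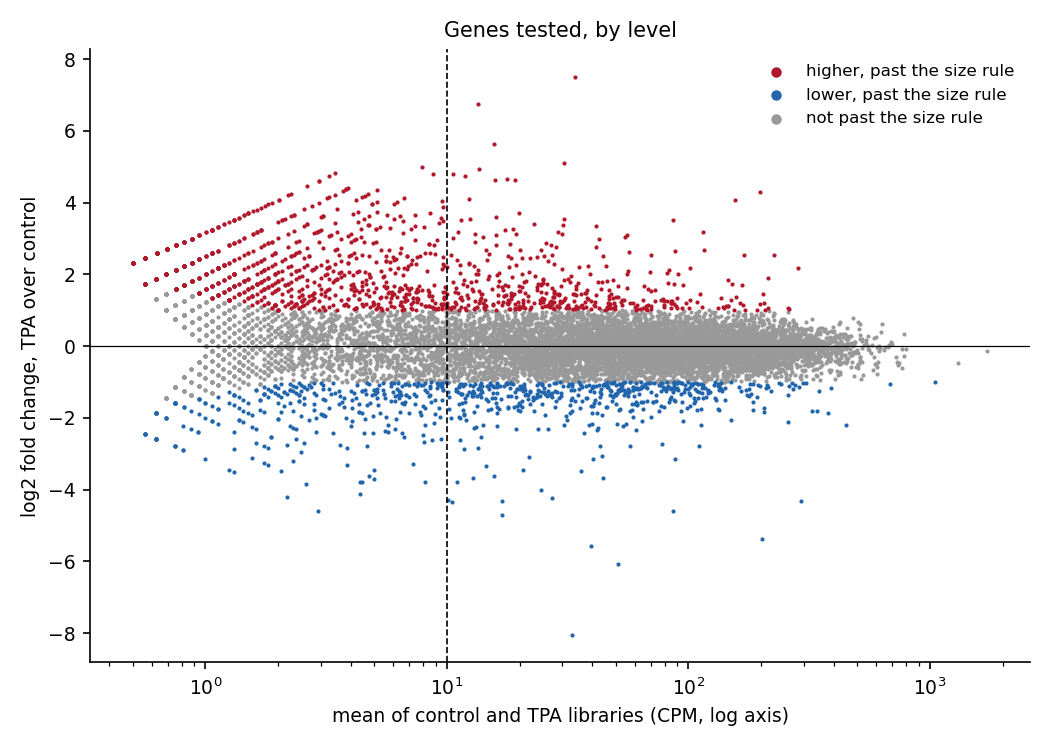
The log2 fold change of TPA over control (vertical axis) is plotted against the mean CPM of both libraries (horizontal axis, log scale) for the 12831 genes tested, 1 point a gene; red and blue points are the 1250 higher and 771 lower genes past the size rule, and the dashed line marks a mean of 10 CPM. To its left 866 genes were higher and 304 lower, and to its right 384 were higher and 467 lower.

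Higher and lower genes differed in base composition and in their surroundings. Among genes with a mean of at least 10 CPM, the median GC content of the transcript was 54.4% for higher genes, 47.2% for lower genes and 50.0% for the rest, and the median span of the gene was 17.2 kb, 35.7 kb and 22.5 kb. When these genes were cut into 8 equal groups by GC content, the median log2 fold change went from -0.18 in the group of lowest GC to 0.18 in that of highest GC, the share called higher from 1.43% to 9.11%, and the share called lower from 7.34% to 2.11%. A neighbour was a same-strand gene at 10 CPM or more in control that ended within 5 kb before the start or extended over it. One was found for 69 of the 384 higher genes (18.0%), 18 of the 467 lower genes (3.85%) and 9.19% of the others. Col7a1, Itgb7 and Best2, described below, are among these higher genes with such a neighbour. Tgm1, Mmp15 and Unc13d, also described below, were higher and have such a neighbour, but their means are under 10 CPM. Subtracting the median of 20 GC bins, a setting chosen after seeing the data, left 347 higher and 406 lower genes with a mean of at least 10 CPM; group counts from that setting are given where they differed from the main counts by more than 1 gene and by over 1.5 times. What part position and base composition have in single genes was not tested.

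**Figure D2:**
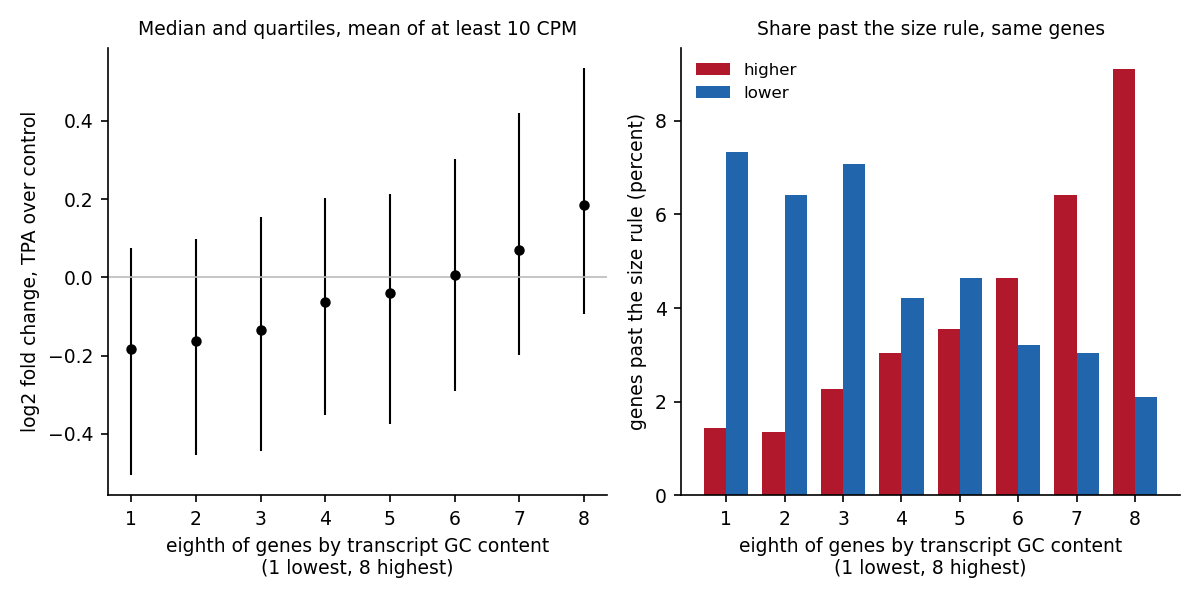
Genes with a mean of at least 10 CPM are cut into 8 equal groups by transcript GC content (horizontal axis). Left, the median log2 fold change of TPA over control with quartiles as bars, from -0.18 to 0.18; right, the percent of genes called higher, from 1.43% in the lowest group to 9.11% in the highest, and lower, from 7.34% to 2.11%.

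The label of skin epithelial cells was set against marker genes. Of 33 keratinocyte markers listed, 32 were in the annotation, 15 had 0 reads in the control library and 15 in the TPA library, and 10 were tested. The keratin genes Krt5, Krt1, Krt18 and Krt15 and the epithelial adhesion gene Epcam had no read in any library, Krt14 had 1, 0 and 1 reads, the E-cadherin gene Cdh1 4, 1 and 4 reads and the epidermal regulator Trp63 1, 0 and 2 reads. These keratin, adhesion and regulator genes were thus at or near 0 in both libraries. Other genes of the list were not: 5 of the 10 tested were higher and 0 lower, with a median log2 fold change of 1.45, among them Lad1 with 3, 246 and 3 reads, Itgb4 with 23, 185 and 26 reads, Pkp3 with 27, 132 and 130 reads, Sfn with 24, 78 and 26 reads and Tgm1 with 6, 61 and 2 reads, and Krt10 had 104, 73 and 52 reads. The part of these marker differences in other results was not tested. Summed over the list, keratinocyte markers came to 102 CPM in control, 225 in TPA and 139 in CDDO+TPA, most of it from Jup, which encodes plakoglobin (589, 969 and 801 reads). Of 24 fibroblast and mesenchymal markers 22 were tested, summing to 4188, 3057 and 3545 CPM. Of the 22, 3 were higher and 5 lower, with a median log2 fold change of -0.07. Vim, which encodes the intermediate filament vimentin, had 2144, 2942 and 2807 reads. Leukocyte markers summed to 53.8, 67.8 and 87.7 CPM, with 8 of 14 at 0 in control, and of 5 tested 3 were higher and 2 lower. Endothelial markers summed to 68.4, 307 and 219 CPM, of which Vwf held 49.9, 289.6 and 198 CPM and Egfl7 15.7, 11.2 and 19.4 CPM; 3 of the 4 tested of 10 listed were higher and none lower. Of the other endothelial markers, Cdh5 had 3, 1 and 0 reads, Kdr 0, 1 and 2 reads, Pecam1 2, 13 and 5 reads and Esam 15, 32 and 4 reads.

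The proteins that bind phorbol esters were taken first. None of the 9 protein kinase C and D genes tested, of 12 listed, was past the size rule, against 9.74% higher and 6.01% lower over all genes. Prkca, which encodes a conventional calcium-dependent isoform, had 99.2, 111 and 166 CPM, and Prkce, a calcium-independent isoform, had 132, 73.7 and 90.1 CPM. Prkcd, the isoform linked to growth arrest, had 137, 169.9 and 125 CPM. The summed level of the 9 genes was 863 CPM in control and 856 in TPA, a ratio of 0.992 (0.959 to 1.03). RNA levels say nothing of the kinase proteins, which are the part known to be depleted.

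Of 6 tested genes of other C1-domain proteins that bind phorbol esters, 4 were higher and 0 lower. Unc13b, a vesicle-priming protein of regulated secretion, had 48, 362 and 229 reads and was 7.59-fold (5.60 to 10.5) higher in the TPA library, where the values in parentheses after a fold are its 95% counting interval. Its relatives Unc13d and Unc13a were 4.16-fold (2.34 to 7.87) and 2.41-fold (1.72 to 3.41) higher, and Rasgrp4, a Ras exchange factor with a C1 domain, was 2.84-fold (1.84 to 4.51) higher. Chn1, a RAC-inactivating chimaerin, was not past the rule, with 213, 167 and 230 reads. The 4 higher genes are low in control, at 15 to 51 reads; Unc13d starts 612 bases downstream of the expressed gene Wbp2, and exons of Rasgrp4 overlap a gene on the other strand. Of the 6 diacylglycerol kinase genes tested, which end the lipid signal, none was past the rule, with a median log2 fold change of 0.29.

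Downstream, the Ras, RAF, MEK and ERK genes were near the control level: of 15 tested, Rras2 alone was past the rule. Rras2, a Ras-related GTPase, had 168, 61.1 and 93.6 CPM and was 2.75-fold (2.48 to 3.06) lower. Among exchange factors and GTPase-activating proteins of Ras, 4 of 19 were higher and none lower. At a mean of at least 10 CPM 2 of 17 were higher and 0 lower, against 3.91% and 4.76% of all such genes. Rasgrf2, a calcium-regulated Ras exchange factor, was nearly silent outside the TPA library, with 3, 136 and 8 reads. Rgl2, an effector of Ras that acts on Ral and starts 604 bases downstream of Tapbp, was 2.39-fold (2.11 to 2.70) higher, and Rasa4, a GTPase-activating protein, 2.22-fold (1.92 to 2.58) higher; neither these genes nor Rapgef3 remained past the rule once the GC trend was subtracted. AP-1 itself showed no gene past the rule among 17 FOS, JUN, ATF and MAF family genes tested, with a median of -0.03. Fos had 23.96, 15.8 and 21.5 CPM, Jun 306, 235 and 184 CPM, and Fosl1, which encodes FRA-1, 42.3, 52.98 and 51.1 CPM, so that the library taken after 5 days held no excess of AP-1 transcripts past the rule.

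Among 26 other immediate early genes, 2 were higher and 1 lower. Phlda1, a pleckstrin-homology protein induced by phorbol ester and growth factors, had 59.3, 144 and 121 CPM and was 2.43-fold (2.18 to 2.71) higher. Csrnp1, a nuclear serine-rich protein, was 2.15-fold (1.88 to 2.48) higher, a call lost once the GC trend was subtracted, and Btg2, an antiproliferative gene, was 2.20-fold (1.95 to 2.49) lower. Of 16 feedback inhibitors, the Sprouty and Spred genes and the phosphatases that act on MAP kinases, 3 were higher and 1 lower, while 12 stayed inside the rule's limits. Dusp5, a nuclear ERK phosphatase, had 44, 157 and 298 reads and was 3.59-fold (2.55 to 5.14) higher. Dusp10, which acts on p38 and JNK, was 2.15-fold (1.75 to 2.66) higher, and Dusp7, a cytoplasmic ERK phosphatase, 2.24-fold (1.95 to 2.57) higher (not past the rule with the GC trend subtracted). Dusp14 was 2.05-fold (1.60 to 2.64) lower, a call that total counts, upper-quartile factors and a prior count of 5 each ended.

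Growth factor systems that feed the same cascade differed in sign. In the EGF receptor family, Egfr, the receptor of TGF-alpha and amphiregulin, had 56.9, 26.2 and 40.7 CPM and was 2.17-fold (1.84 to 2.57) lower, and its ligand gene Ereg (epiregulin) 2.12-fold (1.94 to 2.33) lower; both calls were lost with the GC trend subtracted, which left 1 lower gene in the family. Egf was 4.42-fold (2.11 to 10.4) lower on 40 control reads, and Btc (betacellulin) 2.53-fold (1.65 to 3.97) higher. The family thus had 1 higher and 3 lower of 13 tested. The PDGF system split: Pdgfra, the alpha receptor, had 5.24, 34.9 and 76.9 CPM and was 6.66-fold (4.80 to 9.45) higher, while the ligand gene Pdgfc had 70.4, 14.3 and 30.2 CPM and was 4.92-fold (4.01 to 6.07) lower. Pdgfrl, a receptor-like protein, was 8.33-fold (3.99 to 20.1) lower.

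Of 13 FGF genes tested 6 were higher and 1 lower, but 3 of the 13 entered through the TPA library alone, and at a mean of at least 10 CPM 1 was higher and 1 lower of 6. Fgfr4, a receptor of FGF19-type hormones, had 9, 104 and 12 reads and was 11.6-fold (5.89 to 26.1) higher, and Fgfr2 was 2.35-fold (1.75 to 3.20) higher. Fgf21, a hormone gene induced by ATF4 and PPAR-alpha, went the other way, with 162, 6 and 15 reads, 26.8-fold (12.1 to 74.2) lower. In the IGF axis Irs1, the docking protein of the insulin and IGF1 receptors, had 26.3, 112 and 44.98 CPM and was 4.25-fold (3.65 to 4.96) higher. Igfbp7, a secreted binding protein, had 83.1, 18.3 and 31.9 CPM and was 4.53-fold (3.79 to 5.46) lower, with an exon that overlaps a gene on the other strand, and Stc2, an inhibitor of the protease that frees IGF from its binding proteins, was 3.43-fold (2.91 to 4.06) lower. Over the 16 IGF genes tested, 2 were higher and 3 lower.

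Vascular growth factor genes gave 4 higher and 1 lower of 15, and 2 and 1 of 13 at a mean of at least 10 CPM. Vegfc, the ligand that drives lymphatic vessel growth, had 7.36, 43.2 and 15.6 CPM and was 5.87-fold (4.44 to 7.87) higher. Angptl4, a secreted inhibitor of lipoprotein lipase, had 88.7, 18.6 and 43.2 CPM and was 4.78-fold (3.995 to 5.74) lower. Notch genes were higher in 5 of 18 tested cases and lower in 1, 4 having entered through the TPA library alone; at a mean of at least 10 CPM the counts were 1 and 0 of 10. Notch1 had 16.8, 51.6 and 33.7 CPM and was 3.06-fold (2.52 to 3.75) higher. The receptor gene Notch4 had 4, 92 and 145 reads and was 23.1-fold (8.74 to 86.7) higher, and the ligand gene Dll4 had 1, 43 and 16 reads, although exons of Dll4 overlap a gene on the other strand. Hes7, a repressor of the Notch target class, was 3.26-fold (2.24 to 4.85) higher.

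In the Hedgehog pathway Gli1, a target and effector of the pathway whose exons overlap a gene on the other strand, had 11, 137 and 60 reads and was 12.5-fold (6.79 to 25.7) higher. The co-receptor genes Boc and Cdon, which present Hedgehog ligands, were 7.59-fold (4.99 to 12.03) and 3.26-fold (2.74 to 3.89) lower, with 23.8, 3.14 and 5.58 CPM and 69.5, 21.3 and 36.2 CPM. Gli1 and these co-receptor genes thus went in opposite directions. The Hedgehog list gave 2 higher and 2 lower of 11 tested, with a median of -0.34. At a mean of at least 10 CPM, which Gli1 did not reach, 0 were higher and 2 lower of 8. The CCN matricellular proteins and YAP-TEAD factors, which respond to cell spreading and tension, gave 0 higher and 5 lower of 17 tested. Vgll3, a TEAD cofactor, had 193, 27.6 and 74.1 CPM and was 6.98-fold (6.06 to 8.08) lower. Wisp1 (CCN4) was 3.43-fold (3.15 to 3.75) lower, Ctgf (CCN2), a standard YAP target, 2.76-fold (2.24 to 3.41) lower and Amotl2, an angiomotin that holds YAP in the cytoplasm, 2.31-fold (2.16 to 2.46) lower. The median of the list was -0.14, and 12 genes were not past the rule. Only 12 of the 17 genes have a GC value under these symbols, so that the subtraction of the GC trend is void for this list.

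TGF-beta and BMP genes gave 4 higher and 3 lower of 42 tested, and Wnt genes 6 higher and 2 lower of 29. In the first group Fstl1, a secreted BMP-binding glycoprotein, had 261, 104 and 148 CPM and was 2.52-fold (2.32 to 2.74) lower, and Acvr2b, an activin receptor, was 3.19-fold (1.85 to 5.75) higher on 18 control reads. In the second, Fzd2 and Wnt5a, a receptor and a ligand of non-canonical signalling, were 2.46-fold (2.01 to 3.04) and 2.24-fold (1.62 to 3.14) lower, and Lef1, a nuclear partner of beta-catenin, 3.66-fold (1.998 to 7.17) higher. With a mean of at least 10 CPM, 1 TGF-beta or BMP gene was higher and 1 lower of 31, and 1 Wnt gene higher and 2 lower of 18.

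Genes of the cell cycle differed by group. Of 62 of 62 listed genes of the mitotic spindle and kinetochore, 29 were lower with TPA and 0 higher, and 58 lay below 0. Their median log2 fold change was -0.94, against -0.00 over all genes tested. With a mean of at least 10 CPM, 26 of 56 were lower, where 4.76% of all such genes were. The genes for DNA replication and nucleotide synthesis, which act in the preceding S phase, had a median of 0.01, with 3 higher and 2 lower of 49 tested. Mitotic transcripts have a low GC content, with a median of 46.7%, close to the 48.4% of the replication genes. With the GC trend subtracted, 18 mitotic genes were lower with a median of -0.79, and 3 replication genes were higher and 1 lower with a median of -0.06.

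**Figure D3:**
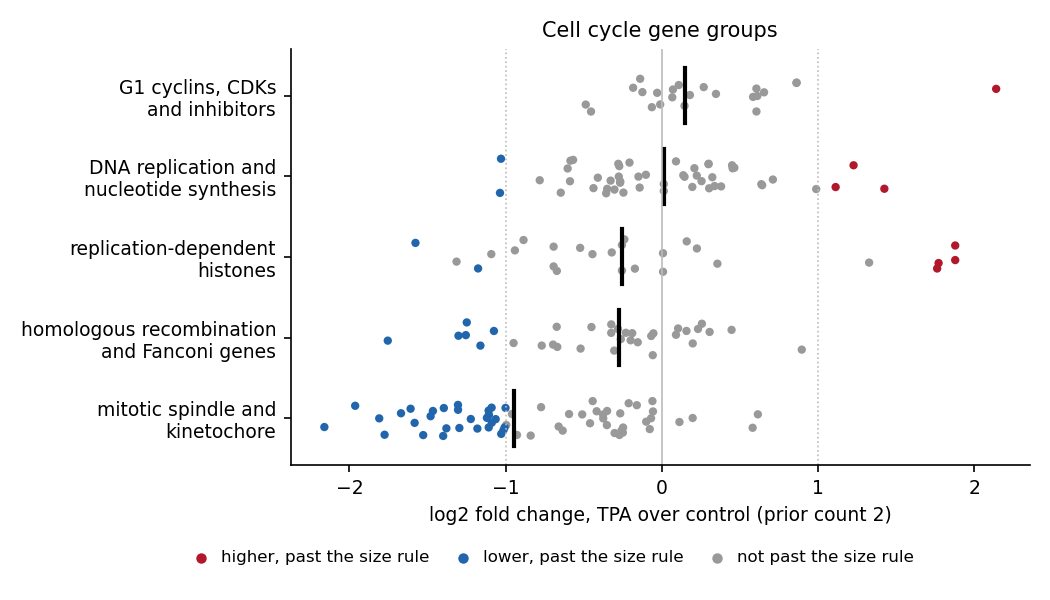
Each point is the log2 fold change of TPA over control (horizontal axis) of 1 tested gene in 5 cell cycle groups; black bars are group medians, dotted lines mark -1 and 1, and colours mark genes past the size rule. The mitotic spindle and kinetochore genes, with a median of -0.94, lie to the left of the DNA replication genes, with a median of 0.01.

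Among the mitotic genes, Hmmr, a spindle-associated receptor of hyaluronan, had 65.4, 14.4 and 127 CPM and was 4.53-fold (3.70 to 5.59) lower in the TPA library. Kif11, the kinesin that separates the spindle poles, had 49.7, 12.6 and 122 CPM and was 3.96-fold (3.17 to 4.98) lower, and Ect2, an exchange factor that acts at cytokinesis, 89.5, 25.4 and 137 CPM and 3.53-fold (3.01 to 4.15) lower. In all 3 genes the control library lay between TPA and CDDO+TPA. Kif14, a kinesin of the midzone, was 3.54-fold (2.49 to 5.14) lower. Mki67, which encodes the Ki-67 proliferation antigen, had 162, 85.2 and 459 CPM and was not past the rule at -0.93. The kinase genes Cdk1, Aurkb and Plk1, with log2 fold changes of -0.30, -0.07 and -0.21, and the passenger gene Birc5, with 0.20, lay near the control level. The last 5 genes were chosen after their values were seen, to show that the lower level did not extend to every mitotic gene.

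Of the replication genes, Gins2, a subunit of the replicative helicase, was 2.75-fold (1.99 to 3.85) higher, with exons that overlap a gene on the other strand. Pold1, the catalytic subunit of polymerase delta, was 2.36-fold (1.92 to 2.91) higher and starts 801 bases downstream of Nr1h2; it left the rule with the GC trend subtracted. Mcm10, a factor of helicase activation, and Rpa3, a subunit of the single-strand binding complex, were 2.07-fold (1.66 to 2.58) and 2.06-fold (1.60 to 2.68) lower, and both left the rule with total counts or upper-quartile factors. Ccne2, the S-phase entry cyclin E2, had 27, 125 and 175 reads and was 4.66-fold (3.05 to 7.35) higher, the one gene past the rule among 23 G1 cyclins, kinases and inhibitors; its exons also overlap a gene on the other strand. Homologous recombination and Fanconi genes gave 0 higher and 6 lower of 34, with a median of -0.27. Fancl, the ubiquitin ligase of the Fanconi core complex, was 3.45-fold (2.57 to 4.70) lower, Chek2, a checkpoint kinase, 2.51-fold (1.90 to 3.33) lower and Blm, a helicase, 2.40-fold (1.90 to 3.05) lower.

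Promoters of late cell cycle genes are known for the CCAAT box, which binds NF-Y, and the cell cycle homology region, which binds repressor complexes in resting cells. Both were searched on both strands from 250 bases before to 50 bases after each RefSeq start of GRCm38.p6, as CCAAT and as TTTGAA. The 2 promoters shown here belong to Hmmr and Kif11, described above; both are read 5′ to 3′ on the strand of the gene over the 160 bases that end at the base before the start, Hmmr from chr11:40733438-40733597, minus strand, and Kif11 from chr19:37376222-37376381, plus strand. Capitals mark the CCAAT box, here in its reverse form ATTGG, and, in Kif11, the reverse form TTCAAA of the cell cycle homology region.
Hmmr: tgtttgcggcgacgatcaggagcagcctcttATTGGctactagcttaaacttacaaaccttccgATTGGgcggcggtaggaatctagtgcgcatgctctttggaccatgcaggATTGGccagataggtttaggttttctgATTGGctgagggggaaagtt
Kif11: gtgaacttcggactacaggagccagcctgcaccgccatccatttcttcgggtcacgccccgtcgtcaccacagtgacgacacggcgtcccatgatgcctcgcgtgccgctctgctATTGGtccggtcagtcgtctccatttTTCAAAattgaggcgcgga
The window of Hmmr holds 4 CCAAT boxes and that of Kif11 holds 1, with the cell cycle homology region 19 bases before the start. Of the mitotic genes with a promoter in the RefSeq table, 31 of 53 held both motifs, against 7.26% of all tested promoters and 4 of 40 of the replication genes. The share among mitotic genes that were lower was 14 of 26, and among those not past the rule 17 of 27, so the motifs did not separate the lower mitotic genes from the others.

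Among clock genes, some repressors of the loop were higher and others were not past the rule. The circadian clock runs as a loop in which CLOCK and ARNTL (BMAL1) activate the Per, Cry and Nr1d genes through E-boxes, and the PER and CRY proteins shut that activity off. Of 19 of 20 listed clock genes, 5 were higher and 2 lower, all of them with a mean of at least 10 CPM; among such genes 3.91% were higher and 4.76% lower overall. Per2, a core repressor, had 6.49, 32.1 and 4.31 CPM and was 4.95-fold (3.66 to 6.81) higher in the TPA library. Per3 had 13.9, 32.01 and 18.1 CPM and was 2.31-fold (1.84 to 2.91) higher. Ciart, a repressor of CLOCK and ARNTL, had 33.7, 102 and 18.6 CPM and was 3.03-fold (2.63 to 3.48) higher. In each of these 3 repressor genes the TPA library was above both other libraries.

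Bhlhe41 (DEC2), an E-box repressor, had 21.1, 91.3 and 44.5 CPM and was 4.33-fold (3.66 to 5.15) higher, and Tef, a bZIP output factor, had 109.7, 298 and 100.4 CPM and was 2.71-fold (2.51 to 2.94) higher. On the activator side, Arntl had 113, 49.6 and 61.96 CPM and was 2.27-fold (2.01 to 2.56) lower, and Rora, the nuclear receptor that activates Arntl, had 223, 100.1 and 137 CPM and was 2.23-fold (2.05 to 2.42) lower. Per1, Cry1 and Cry2, named after their values were seen, were not past the rule, at log2 fold changes of 0.86, 0.60 and 0.82, nor was Clock, at 0.30. The repressor genes Nr1d1, Nr1d2, Bhlhe40 and Nfil3 were not past the rule either, with 149, 185 and 153 CPM, 241, 290.1 and 188 CPM, 114, 116 and 147 CPM and 96.6, 67.7 and 63.1 CPM. No source used here gives the time of day at which each culture was taken, so treatment and sampling time cannot be told apart.

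The E-box CACGTG lies in the promoters of several of these genes. The promoters of Ciart and Bhlhe41 are shown because both are repressors of the loop that were higher; Ciart covers chr3:95882229-95882388, minus strand, and Bhlhe41 chr6:145865421-145865580, minus strand, each over the 160 bases before the RefSeq start in GRCm38.p6. Capitals mark the E-box.
Ciart: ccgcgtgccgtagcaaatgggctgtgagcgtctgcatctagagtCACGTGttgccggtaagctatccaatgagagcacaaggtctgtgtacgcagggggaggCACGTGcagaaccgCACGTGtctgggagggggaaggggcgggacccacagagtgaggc
Bhlhe41: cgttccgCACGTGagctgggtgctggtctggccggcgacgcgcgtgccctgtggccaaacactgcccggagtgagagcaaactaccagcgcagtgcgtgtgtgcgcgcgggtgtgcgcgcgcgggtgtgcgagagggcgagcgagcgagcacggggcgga
Ciart holds 3 E-boxes in this window, the nearest 44 bases before the start, and Bhlhe41 holds 1. The motif lay in 3 of 4 promoters of the higher clock genes that the RefSeq table lists, in 0 of 2 of the lower ones and in 2 of 10 of the rest. Over all tested promoters the share was 11.7%, and among higher genes with a mean of at least 10 CPM it was 11.9%.

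Heat shock protein genes had 7 higher and 0 lower of 37 tested, and 5 of 33 higher at a mean of at least 10 CPM, with a median of 0.38 there. These chaperones are transcribed by HSF1 when proteins misfold. Hspa1b and Hspa1a, near-identical copies of inducible HSP70 between which reads cannot be divided with certainty, had 151, 3012 and 1635 reads and 137, 2344 and 1264 reads. Summed, they came to 35.9, 672 and 367 CPM, and the sum was 18.7-fold (16.6 to 21.1) higher in the TPA library. Hspa4l, an HSP110 nucleotide exchange factor that works with HSP70, had 66.02, 385 and 275 CPM and was 5.83-fold (5.31 to 6.40) higher. Dnajb1, the HSP40 partner of HSP70, had 87.2, 227 and 165 CPM and was 2.60-fold (2.38 to 2.84) higher. The testis-type HSP70 gene Hspa1l, beside Hspa1a, was 5.26-fold (4.04 to 6.93) higher. In each of these 5 genes CDDO+TPA lay between the other two libraries.

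**Figure D4:**
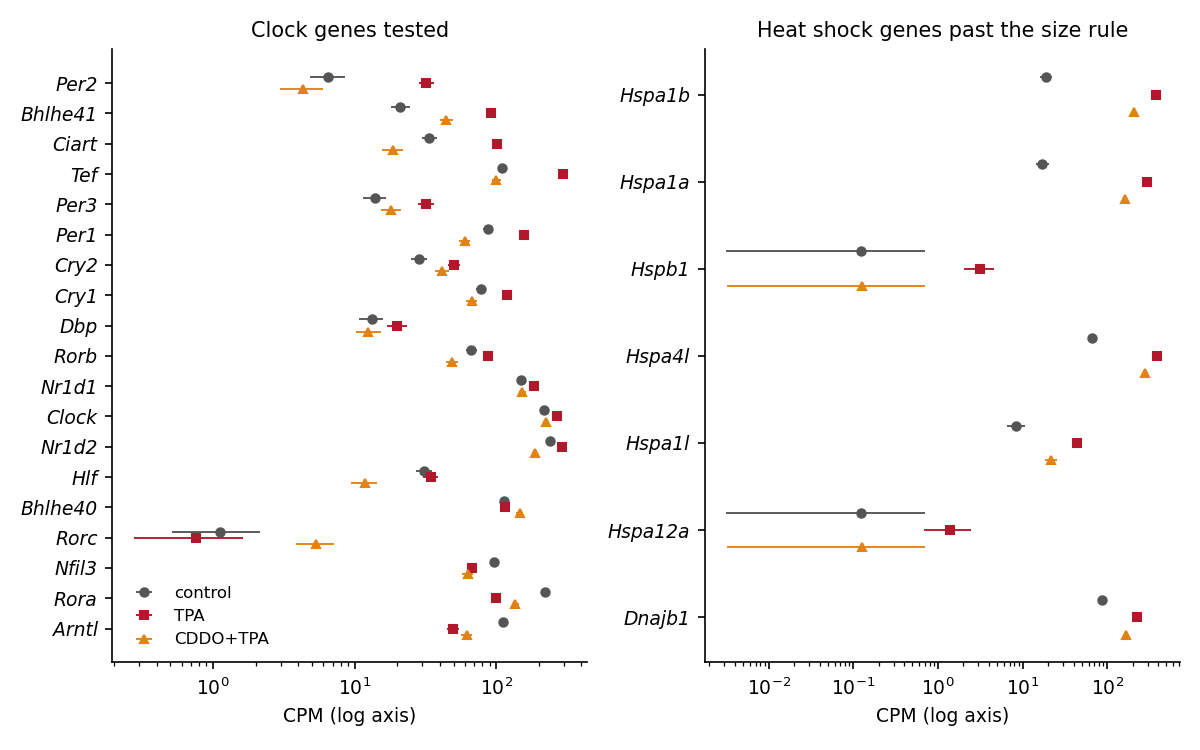
CPM (horizontal axis, log scale) for each of the 3 libraries, marked by colour and shape, for the 19 clock genes tested (left) and the 7 heat shock genes past the size rule (right), with bars for exact 95% Poisson intervals of the count. Among the clock genes TPA lies above control from Per2 to Per3 and below it for Rora and Arntl; Hspb1 and Hspa12a rest on 1 read in control.

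The promoters of the pair are shown because their genes had the highest fold among those with a mean of at least 50 CPM. Hspa1b covers chr17:34959239-34959398, minus strand, and Hspa1a chr17:34972157-34972316, minus strand, in GRCm38.p6. Capitals mark the heat shock element pair GAANNTTC and the CCAAT box in its reverse form ATTGG.
Hspa1b: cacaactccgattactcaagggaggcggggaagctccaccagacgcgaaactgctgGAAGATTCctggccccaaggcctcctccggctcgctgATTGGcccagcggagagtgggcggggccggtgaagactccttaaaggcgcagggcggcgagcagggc
Hspa1a: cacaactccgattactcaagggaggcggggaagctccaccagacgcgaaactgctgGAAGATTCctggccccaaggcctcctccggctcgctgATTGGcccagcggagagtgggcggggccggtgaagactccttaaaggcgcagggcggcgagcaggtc
Both windows hold the same pair of heat shock units 104 bases before the start. A pair in either arrangement, GAANNTTC or TTCNNGAA, lay in 3 of 7 promoters of the higher heat shock genes, in 11 of 24 of those not past the rule and in 13.99% of all tested promoters. The difference did not extend to other branches of protein quality control. None of the 34 proteasome genes tested was past the rule, with a median of -0.11, and of 34 genes of the unfolded protein and ATF4 responses 0 were higher and 4 lower. Atf6, a sensor of misfolded protein in the endoplasmic reticulum, had 541, 241 and 335 CPM and was 2.25-fold (2.13 to 2.38) lower.

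Extracellular matrix genes held some of the lowest folds at high expression. The 27 of 44 listed collagens tested split into 7 higher and 8 lower, but at a mean of at least 10 CPM 7 of 19 were lower and 3 higher, with a median of -0.76 against -0.04 for all such genes. Summed, collagen reads came to 4264 CPM in control, 2321 in TPA and 2661 in CDDO+TPA. Col1a1, of the main fibril collagen of skin, had 529, 152 and 267 CPM and was 3.49-fold (3.27 to 3.72) lower, and its partner chain Col1a2 had 506, 144 and 207 CPM and was 3.50-fold (3.28 to 3.74) lower. Col3a1, the chain of type III, had 50.2, 10.8 and 7.22 CPM and was 4.65-fold (3.67 to 5.94) lower. Col5a2, which nucleates type I fibrils, had 557, 27.7 and 82.5 CPM and was 20.1-fold (17.5 to 23.1) lower. These fibril-forming chains were thus lower together, by differing amounts.

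Some other collagens were higher. Col7a1, the anchoring fibril collagen that ties epidermis to dermis, had 23.96, 152 and 32.4 CPM and was 6.33-fold (5.44 to 7.42) higher, with its start 4104 bases downstream of the expressed gene Uqcrc1. Col6a3, a chain of beaded filaments, had 78.4, 254 and 207 CPM and was 3.24-fold (2.96 to 3.54) higher. The enzymes that hydroxylate and cross-link collagen were lower in 6 of 18 cases and higher in 0, among them Loxl4, a lysyl oxidase, with 491, 205 and 322 CPM and 2.40-fold (2.26 to 2.54) lower, and the prolyl 3-hydroxylases P3h1 and P3h2, 2.73-fold (2.20 to 3.40) and 2.70-fold (2.28 to 3.22) lower. Elastic fibre genes were lower in 5 of 8 with a mean of at least 10 CPM. Fbln5, which assembles elastin, had 186, 40.2 and 70.6 CPM and was 4.62-fold (4.09 to 5.23) lower, and Fbn1, the fibrillin of microfibrils, had 114, 47.3 and 101 CPM and was 2.40-fold (2.13 to 2.72) lower. Svep1, a large adhesive matrix protein, had 810, 10 and 138 reads and was 80.5-fold (43.6 to 169) lower.

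**Figure D5:**
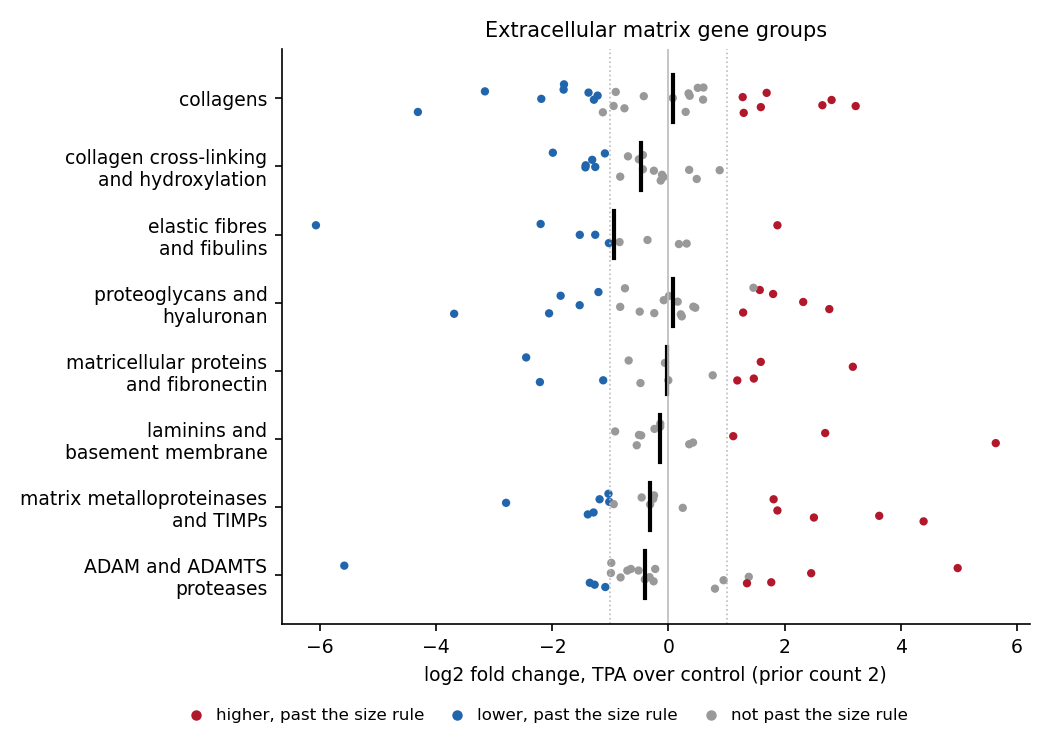
Each point is the log2 fold change of TPA over control (horizontal axis) of 1 tested gene in 8 extracellular matrix groups; black bars are group medians, dotted lines mark -1 and 1, and colours mark genes past the size rule. Cross-linking enzymes had 0 genes higher and 6 lower, while collagens had 7 higher and 8 lower and matrix metalloproteinases and TIMPs 5 higher and 6 lower.

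Proteoglycan and hyaluronan genes gave 5 higher and 5 lower of 22, and 2 and 4 of 15 at a mean of at least 10 CPM. Vcan, the large hyaluronan-binding proteoglycan versican, had 594, 164 and 494 CPM and was 3.63-fold (3.41 to 3.86) lower, and the cell-surface heparan sulfate carrier Gpc4 was 2.90-fold (2.57 to 3.27) lower. Dcn (decorin), which coats collagen fibrils, had 8.49, 25.7 and 33.6 CPM and was 3.03-fold (2.29 to 4.05) higher, and Hyal1, a lysosomal hyaluronidase 4174 bases downstream of Hyal2, was 3.55-fold (2.74 to 4.66) higher. Tnc, the matrix protein tenascin C, had 13.5, 37.8 and 49.04 CPM and was 2.80-fold (2.24 to 3.53) higher, while Sparc, a collagen-binding protein, had 181, 82.98 and 139.5 CPM and was 2.18-fold (1.99 to 2.40) lower. Among laminins and basement membrane genes 7 of 12 lay below 0, and the summed level of the list was 2163, 1627 and 2370 CPM. None of the 12 was lower past the rule and 3 were higher. Among the higher ones Lad1, an anchoring filament protein, had 3, 246 and 3 reads.

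Matrix proteases are classical TPA-responsive genes. Of 17 metalloproteinase and TIMP genes tested, 5 were higher and 6 lower, but none of the 5 reached a mean of 10 CPM. Mmp3 (stromelysin 1) had 15, 94 and 64 reads and was 6.30-fold (3.63 to 11.7) higher. Mmp10 (stromelysin 2) had 4, 72 and 19 reads and was 18.1-fold (6.77 to 68.3) higher, and the membrane-type protease gene Mmp15 had 1, 61 and 11 reads. On the other side, Timp3, the inhibitor that stays bound to matrix, had 100.1, 14.2 and 16.1 CPM and was 7.06-fold (5.79 to 8.67) lower, and Timp1 had 57.8, 23.5 and 66.5 CPM and was 2.46-fold (2.07 to 2.93) lower. Timp3 and Timp1 were thus lower where the stromelysin genes, still few in reads, were higher. The other lower genes of the list are not named here. At a mean of at least 10 CPM, 5 of 10 genes of the list were lower and 0 higher, with a median of -0.98. Adamts5, an aggrecanase, had 625, 11 and 87 reads and was 56.5-fold (31.3 to 114) lower. The sheddases Adam17 and Adam10, which release EGF receptor ligands and Notch ectodomains, were 2.42-fold (2.19 to 2.67) and 2.13-fold (1.98 to 2.29) lower; Adam10 left the rule with the GC trend subtracted, and exons of Adam17 overlap a gene on the other strand.

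The TPA response element was searched as TGANTCA on both strands, and the promoters of Mmp3 and Mmp10 are shown because they hold it close to the start. Mmp3 covers chr9:7445662-7445821, plus strand, and Mmp10 chr9:7502182-7502341, plus strand, in GRCm38.p6, again 160 bases before the RefSeq start. Capitals mark the TPA response element, TGAGTCA, and the TATA box, TATAAA.
Mmp3: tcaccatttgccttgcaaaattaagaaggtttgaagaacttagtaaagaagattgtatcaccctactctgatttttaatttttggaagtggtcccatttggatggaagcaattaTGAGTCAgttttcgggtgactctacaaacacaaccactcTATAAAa
Mmp10: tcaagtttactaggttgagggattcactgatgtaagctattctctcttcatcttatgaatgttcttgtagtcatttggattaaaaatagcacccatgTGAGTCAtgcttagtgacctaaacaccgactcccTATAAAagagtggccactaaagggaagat
The element begins 46 bases before the start in Mmp3 and 63 bases in Mmp10. Over all tested promoters it lay in 85 of 924 of higher genes (9.20%), 50 of 600 of lower genes (8.33%) and 6.31% of all. Mmp3 and Mmp10 belong to that set alone, as their means are under 10 CPM. At a mean of at least 10 CPM the element lay in 31 of 293 promoters of higher genes (10.6%), in 26 of 369 of lower genes (7.05%) and in 5.79% of all promoters at that level. The related cyclic AMP response element TGACGTCA lay in 3 of 293 of the higher genes (1.02%), 18 of 369 of the lower (4.88%) and 3.85% of all. Neither motif contains the other. The TEAD element GGAATG lay in 17.6% of promoters of lower genes and 12.97% of those of higher genes, against 13.7% of all.

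Adhesion genes differed by family. Among 13 integrin genes 3 were higher and 2 lower. Itgb7, the beta chain of leukocyte-type integrins, had 36.8, 167 and 256 CPM and was 4.53-fold (3.99 to 5.16) higher, with its start 3003 bases downstream of Rarg. Itga7, a laminin receptor chain, and Itgb4, the hemidesmosome chain, had 25, 230 and 21 reads and 23, 185 and 26 reads, and exons of both overlap a gene on the other strand. Itga1, a collagen receptor chain, was 6.67-fold (2.998 to 17.5) lower, and Itgb5, a vitronectin receptor chain, 2.07-fold (1.91 to 2.24) lower, a call that total counts and upper-quartile factors ended. Classical and other cadherins had 5 higher and 0 lower of 16, and 2 and 0 of 8 at a mean of at least 10 CPM. Celsr2 and Dchs1, cadherins of planar polarity and of the Fat pathway, had 12, 473 and 5 reads and 20, 189 and 22 reads, near silent outside the TPA library.

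Clustered protocadherins, a family of neighbouring cell recognition genes, had more lower than higher members. Of 17 tested, 9 were lower and 2 higher, with a median of -1.11, but 6 entered through the control library alone and 3 through the TPA library alone; all but 1 had a mean under 10 CPM, the range in which 866 of all genes were higher and 304 lower. Pcdhb17 and Pcdhb14 had 81, 21 and 43 reads and 41, 9 and 20 reads, 3.83-fold (2.35 to 6.53) and 4.53-fold (2.17 to 10.6) lower, and Pcdhb5 had 32, 1 and 14 reads. The related but unclustered Pcdh10 had 11.6, 100.3 and 24.1 CPM and was 8.64-fold (6.97 to 10.8) higher, and its exons overlap a gene on the other strand. The family members share sequence, so that reads of single members are uncertain.

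Desmosome and epidermal differentiation genes were tested in 11 of 31 cases, with 6 higher and 1 lower, and 5 entered through the TPA library alone. Pkp3, a desmosomal plaque protein, had 27, 132 and 130 reads and was 4.92-fold (3.23 to 7.74) higher, and Tgm1, the transglutaminase of the cornified envelope, had 6, 61 and 2 reads. Only 2 of the group had a mean of at least 10 CPM, and neither was past the rule. Tight and gap junction genes gave 5 higher and 1 lower of 17, 5 of which entered through the TPA library alone; at a mean of at least 10 CPM 1 of 8 was higher, with a median of -0.06. Cldn15, a pore-forming claudin, had 30, 89 and 5 reads, 2.98-fold (1.95 to 4.68) higher, and starts 1635 bases downstream of Fis1.

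Guidance cues were mixed. Slit2, a secreted repellent of the ROBO receptors, had 738, 161 and 318 CPM and was 4.59-fold (4.32 to 4.88) lower, and Slit3 had 43.7, 8.54 and 37.4 CPM and was 5.12-fold (3.94 to 6.74) lower. Sema3a and Sema3c, secreted semaphorins, had 104, 24.2 and 38.6 CPM and 159, 52.98 and 211 CPM and were 4.30-fold (3.67 to 5.06) and 2.999-fold (2.68 to 3.36) lower. Among membrane-bound semaphorins, Sema5a and Sema4b had 22.2, 89.5 and 84.6 CPM and 13.2, 51.97 and 36.999 CPM and were 4.03-fold (3.41 to 4.78) and 3.93-fold (3.17 to 4.91) higher. Counted over the lists, 7 of 23 semaphorin, plexin and neuropilin genes were higher and 2 lower, and 2 of 12 netrin, Slit and receptor genes higher and 3 lower; at a mean of at least 10 CPM these were 2 higher and 2 lower of 13, and 0 higher and 2 lower of 6.

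None of 24 actomyosin genes with a mean of at least 10 CPM was past the rule. Some regulators of the contractile apparatus were higher. Arhgap31, an inactivator of CDC42 and RAC1, had 35.8, 104 and 106 CPM and was 2.90-fold (2.53 to 3.33) higher, and Arhgef40 had 69.4, 233 and 135 CPM and was 3.35-fold (3.05 to 3.69) higher, with exons that overlap a gene on the other strand. Fhod1, a formin that bundles actin, had 22.8, 208 and 31.4 CPM and was 9.11-fold (7.82 to 10.7) higher.

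Several groups of inflammatory genes had more lower than higher members. Acute-phase and pattern recognition genes gave 8 lower and 2 higher of 17, and at a mean of at least 10 CPM 6 of 8 were lower and none higher. Saa3, a serum amyloid made by epithelium and macrophages, had 75.4, 10.8 and 68.04 CPM and was 6.98-fold (5.56 to 8.86) lower, and Lbp, which hands lipopolysaccharide to CD14, was 16.5-fold (8.75 to 35.05) lower. Cp (ceruloplasmin), a copper-carrying oxidase of plasma, had 153, 64.03 and 161 CPM and was 2.39-fold (2.16 to 2.66) lower. Upstream of these genes, Osmr, a receptor chain of oncostatin M, had 419.6, 97.3 and 349.8 CPM and was 4.31-fold (3.99 to 4.67) lower, and Stat3, the factor it activates, had 318, 156 and 292 CPM and was 2.04-fold (1.90 to 2.18) lower, a call that total counts and upper-quartile factors ended. The ligand gene Il6 had 63, 10 and 10 reads and was 6.26-fold (3.19 to 13.7) lower. In Osmr and Stat3 the CDDO+TPA library was closer to control than to TPA, whereas Il6 had as few reads there as with TPA.

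Complement and coagulation genes gave 2 higher and 6 lower of 22. C1ra, a protease of the first complement component, had 173, 64.2 and 111 CPM and was 2.69-fold (2.43 to 2.98) lower, and Cfb, of the alternative pathway, was 3.09-fold (2.31 to 4.19) lower. Vwf, the carrier of platelet adhesion, had 49.9, 289.6 and 198 CPM and was 5.80-fold (5.22 to 6.47) higher. Chemokine genes were lower in 5 of 13 and higher in 2, and lower in 3 of 7 at a mean of at least 10 CPM; Ccl8, a monocyte attractant, was 3.51-fold (2.41 to 5.23) lower, and Cxcl5, a neutrophil attractant, had 89.4, 41.1 and 94.5 CPM and was 2.18-fold (1.91 to 2.49) lower. With the GC trend subtracted, Cxcl5 left the rule and 3 chemokine genes were lower. Interferon-stimulated genes had 0 higher and 5 lower of 29, and 0 and 2 of 14 at a mean of at least 10 CPM, among them Irf1, a factor of the interferon response, with 84.9, 37.9 and 48.1 CPM and 2.24-fold (1.95 to 2.57) lower. Antigen presentation genes gave 4 lower and 0 higher of 16 at a mean of at least 10 CPM. Erap1, the aminopeptidase that trims peptides for class I molecules, had 187, 79.8 and 103 CPM and was 2.34-fold (2.14 to 2.58) lower, and Cd74, the class II invariant chain, 3.48-fold (2.56 to 4.80) lower.

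Some inflammatory mediators were higher. Il24, a cytokine of the IL-10 family made by keratinocytes and fibroblasts, had 25, 253 and 285 reads and was 10.2-fold (6.74 to 16.03) higher. Ptges, the microsomal synthase of prostaglandin E2, had 23.6, 70.7 and 69.2 CPM and was 2.997-fold (2.54 to 3.55) higher, and Ptger4, a receptor for that prostaglandin, was 2.32-fold (1.74 to 3.13) higher. The prostaglandin and leukotriene list as a whole gave 4 higher and 2 lower of 18, and 2 and 0 of 9 at a mean of at least 10 CPM. Tnfaip3 (A20), the ubiquitin-editing inhibitor of NF-kB, had 48.3, 115 and 55.2 CPM and was 2.38-fold (2.11 to 2.69) higher, while Vcam1, an adhesion molecule that NF-kB induces, had 80.5, 23.6 and 35.2 CPM and was 3.41-fold (2.89 to 4.03) lower. Tnfsf9, a ligand that costimulates T cells, was 3.72-fold (2.998 to 4.64) higher. NF-kB genes as a list were near the background, with 1 higher and 2 lower of 20 and a median of 0.00.

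Regulators of survival and arrest were mixed. Gadd45g, a stress sensor of the growth arrest family, had 48, 429 and 164 reads and was 8.99-fold (6.66 to 12.4) higher, while its relative Gadd45a had 113, 51.7 and 77.9 CPM and was 2.19-fold (1.95 to 2.46) lower, with exons that overlap a gene on the other strand. In the BCL2 family 4 of 16 genes were higher and 1 lower. At a mean of at least 10 CPM 2 of 12 were higher and 0 lower, against 3.91% and 4.76% of all such genes. Bcl2l11 (BIM), which promotes apoptosis, had 10.6, 39.3 and 19.1 CPM and was 3.70-fold (2.91 to 4.77) higher, and Bnip3, a mitophagy receptor induced by hypoxia, had 59.9, 163 and 143 CPM and was 2.73-fold (2.46 to 3.04) higher. Bcl2, which protects from apoptosis, had 101, 29 and 100 reads and was 3.46-fold (2.27 to 5.43) lower.

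In lipid metabolism, the genes of the cholesterol pathway past the rule were all lower. Cells make cholesterol from acetyl-CoA under the control of SREBP2, which acts when sterol is short. Of 27 genes tested, 7 were lower and none higher, and 22 lay below 0, with a median of -0.70. Idi1, an isomerase of the isoprenoid steps, had 51.04, 13.8 and 26.6 CPM and was 3.70-fold (2.99 to 4.60) lower, and Cyp51, a sterol demethylase, had 90.9, 29.4 and 41.1 CPM and was 3.09-fold (2.67 to 3.60) lower. The serum in the medium of the control culture is not given, and its part in sterol genes was not tested. The fatty acid synthesis list was closer to background, with 1 higher and 3 lower of 27; Dgat2, which makes triglyceride, had 70.1, 21.6 and 37.3 CPM and was 3.25-fold (2.73 to 3.88) lower.

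Energy metabolism differed at single regulators more than over pathways. Ppargc1a (PGC-1 alpha), the coactivator of mitochondrial genes, had 21, 296 and 165 reads and was 14.2-fold (9.11 to 23.3) higher, and Ppargc1b had 40, 116 and 96 reads and was 2.92-fold (2.02 to 4.29) higher, yet of 77 nuclear genes of oxidative phosphorylation 0 were higher and 1 lower, with a median of 0.01. Pfkfb4, which sets the level of a fructose bisphosphate that drives glycolysis, and Pdk1, which shuts off pyruvate dehydrogenase, had 11.4, 38.8 and 37.5 CPM and 14.6, 40.9 and 45.6 CPM and were 3.42-fold (2.70 to 4.36) and 2.80-fold (2.26 to 3.49) higher. The glycolysis list had a median of 0.31, with 2 higher and 1 lower of 23. Txnip, the thioredoxin-binding arrestin that limits glucose uptake, had 82.4, 6.15 and 24.5 CPM and was 13.4-fold (10.01 to 18.3) lower, with exons that overlap a gene on the other strand. Gss, glutathione synthetase, was 3.31-fold (2.55 to 4.33) lower, and the other 36 of 38 glutathione, thioredoxin and NADPH genes were not past the rule.

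Ion channel genes were mostly low in reads. Potassium channels gave 8 higher and 2 lower of 18, 3 of which entered through the TPA library alone, and 3 of 6 were higher at a mean of at least 10 CPM. Kcnn4, the calcium-activated channel of proliferating cells, had 34, 257 and 199 reads and was 7.60-fold (5.30 to 11.2) higher, and Kcnk2 (TREK-1), a background channel opened by stretch, had 44, 128 and 134 reads and was 2.93-fold (2.06 to 4.22) higher. Sodium, calcium, chloride and TRP channels gave 14 higher and 5 lower of 50, 10 of which entered through the TPA library alone; at a mean of at least 10 CPM they gave 5 and 3 of 31, with a median of 0.01. Clcn2, a chloride channel, had 87, 391 and 286 reads and was 4.52-fold (3.58 to 5.77) higher, with exons that overlap a gene on the other strand, and P2rx7, the ATP-gated channel of cell death, had 23, 201 and 24 reads and was 8.79-fold (5.70 to 14.2) higher. Best2, a calcium-activated chloride channel, had 10, 296 and 7 reads and starts 3400 bases downstream of Asna1. Atp2a3, the calcium pump SERCA3, had 51.8, 2.51 and 24.3 CPM and was 20.6-fold (13.2 to 34.1) lower, while Atp2a1 (SERCA1) had 6, 96 and 6 reads and starts 3920 bases downstream of Sh2b1.

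Transcription factors of the mesenchymal state gave 5 higher and 1 lower of 24. Sox9, a factor of skin and cartilage progenitors, had 63.1, 228 and 168 CPM and was 3.60-fold (3.26 to 3.99) higher. Runx1 had 125, 285 and 179 CPM and was 2.29-fold (2.12 to 2.47) higher. Snai1, a repressor of E-cadherin named after its values were seen, had 28.2, 64.9 and 29.4 CPM and was 2.30-fold (1.96 to 2.70) higher. That call was lost with the GC trend subtracted. Its relative Snai2 and the mesenchymal factors Zeb1, Zeb2, Twist1 and Twist2 were not past the rule. Snai2 had 131, 139 and 68.7 CPM, Zeb1 115, 108 and 117 CPM and Zeb2 230, 123 and 192 CPM. Twist1 had 37.7, 67.2 and 47.3 CPM and Twist2 102, 151 and 118 CPM. Chromatin genes were near the background: 0 higher and 1 lower of 16 for DNA methylation and demethylation, 4 and 0 of 63 for histone methylation, and 1 and 1 of 47 for remodelling complexes. Hdac4, a class II deacetylase that leaves the nucleus when phosphorylated, had 124, 46.1 and 81.1 CPM and was 2.68-fold (2.38 to 3.03) lower.

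None of 81 ribosomal protein genes, 34 ribosome biogenesis genes and 34 proteasome genes tested was past the rule in either direction. Their medians were 0.17, -0.03 and -0.11, and the ribosomal medians moved to 0.23 and 0.03 with total counts. The small differences of the ribosomal protein genes were mostly of 1 sign, with 77 of 81 above 0, and their summed level was 1.11-fold (1.10 to 1.12) that of control. Splicing factors gave 5 higher and 2 lower of 90, with a median of 0.03.

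The near-silent genes that were higher in the TPA library had few reads there too. There were 592 with under 1 CPM in control, 126 of them with 0 control reads; their median in the TPA library was 18 reads, or 2.26 CPM, and 22 reached 10 CPM there. Summed, they came to 199 CPM in control and 2047 in TPA. They belong to many unrelated families, such as Myl9, a smooth muscle myosin light chain, with 0, 22 and 8 reads, Tnni1, a troponin of slow muscle, with 1, 24 and 0 reads, and Abca6, a lipid transporter, with 0, 23 and 0 reads. Ppl, the envelope protein periplakin, had 0, 15 and 1 reads and Rbm44, an RNA-binding protein of germ cells, 0, 47 and 0 reads. Against a floor of 3 control reads, the TPA level of Rbm44 was 15.8-fold, that of Abca6 7.71-fold and that of Myl9 7.38-fold. These ratios leave out the counting error of the TPA reads, and the counting interval of Myl9 began at 5.51-fold. Of the 592, 99 had an expressed gene that ended within 5 kb upstream on the same strand or extended over the start. This was 16.8%, against 10.5% of all genes tested. Among all higher genes the share was 18.7%, and among those with a mean of at least 10 CPM 18.0%, so it was not particular to near-silent genes. The opposite class, lower with under 1 CPM in the TPA library, held 125 genes, 20 of them with 0 reads there.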

How the data were processed

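Total RNA of JB6 P+ cells was sequenced in 3 libraries, 1 per group. The deposited table holds raw read counts, whole numbers per gene. Per the file headers the authors ran featureCounts 1.5.3 with UCSC gene models of mm10 on duplicate-removed alignments, kept primary alignments and set no strand option. HISAT2, Picard and DESeq are named without a version in the submitters' processing notes. The count command in the header names 7 alignment files; the table holds 3 count columns, and all 3 were used. Duplicate removal can cap the reads of an abundant gene, and counts without strand mix genes whose exons overlap.

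Scaling used TMM (edgeR 4.0.16, R 4.3.3) over the 3 libraries, with factors of 0.978 for control and 1.020 for TPA. Log2 fold changes used a prior count of 2, which narrows the folds of low genes; folds are ratios of CPM with exact conditional binomial (Clopper-Pearson) 95% intervals. A fold against 0 reads is a ratio to a floor of 3 counts, 0.374 CPM in control and 0.377 in TPA. It leaves out the counting error of the reads in the other library and is not a lower bound. No p-value was computed, since each group had 1 library. On simulated counts with Poisson error alone, the rule called most genes of at least 10 CPM that were given 4-fold changes. Changes in near-silent genes, folds near the limit of the rule and spread between cultures were not simulated. Gene positions came from the mm10 coordinates deposited with the counts, and GC content from GENCODE M21 transcripts of GRCm38. Promoters came from RefSeq GRCm38.p6, where 10129 tested genes matched.

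The 95 gene lists, the motifs and the genes shown were chosen with earlier results of these data known. Named are the 15 highest and 15 lowest genes with a mean of at least 50 CPM, up to 4 genes per list and direction, ranked by the interval bound nearest to 1, and a few marked genes. Another 19, among them Col1a1, Per3, Dnajb1, Hspa1l and Snai1, and the marker genes given with reads, fall outside this rule; the 19 were chosen after their values were seen. Alternatives were other scalings (DESeq2 1.42.0 size factors, total counts, upper quartile, TMM of both libraries alone), prior counts, filters, fold thresholds, a stricter interval, leaving out overlapping genes and subtracting the GC trend. Results of some genes and of 1 gene list are not reported here.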

Additional observations from a re-analysis of the deposited data

How the results depend on the processing

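No paired analysis was possible because each group had 1 library; for the same reason no library could be left out. The counts of genes past the rule followed the fold that was asked for. At 1.5-fold, 2032 genes were higher and 1794 lower, and at 4-fold 538 and 144. Among genes whose mean reached 10 CPM these were 1041 and 1354 at 1.5-fold, and 89 and 58 at 4-fold. A filter on a mean of at least 3 CPM in place of 1 CPM in either library took the higher genes from 1250 to 687 and the lower genes from 771 to 616. All other settings left these 4 counts within 1.5 times, from 841 to 1352 for higher and from 526 to 797 for lower genes. Of the 437 genes named or marked, none that was past the rule reversed in any setting run; 49 left the size rule in at least 1, namely 35 with the GC trend subtracted, 17 with upper-quartile factors, 15 with total counts, 10 with a prior count of 5 and 4 with DESeq2 size factors. Among the gene lists, 5 medians moved beyond the interval of the list's own median in at least 1 setting. The scalings shifted the median log2 fold change of all genes by at most 0.061. With 7813035 and 8190078 reads, genes near 1 CPM rest on few reads, and single genes there are known only within wide counting intervals.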
